A study of Mus musculus and Sus scrofa with 12 samples.

Results

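The cytosolic ribosomal protein genes were taken as every protein-coding gene of the NCBI RefSeq annotation whose symbol begins with Rpl, Rps or Rplp and goes on with a number and the usual suffix letters, which leaves out the mitochondrial ribosomal protein genes (Mrpl and Mrps) and the ribosomal S6 kinases. The rule found 83 genes among 21774 coding genes of the mouse annotation (GRCm38) and 82 records among 20661 of the pig annotation (Sscrofa11.1). Of the mouse genes 52 encode proteins of the large 60S subunit and 31 of the small 40S subunit, and of the pig records 51 belong to the 60S and 31 to the 40S subunit. The pig records carry 81 distinct symbols, because RPL18 is annotated on chromosome 6 and again as a record of 600 bp on chromosome 1. Both annotations hold 80 of the symbols, counting mouse Rps3a1 as pig RPS3A by its RefSeq synonym. Rpl32l, Rpl39l and Rpl41 were matched only in mouse, and RPL26L1 only in pig.

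The forelimb buds came from wild-type mouse embryos at E11.5 and wild-type pig embryos at day 23 of gestation, with no transgene or treatment. In each species H3K4me3, H3K27ac and H3K4me1 were mapped by ChIPmentation, a chromatin immunoprecipitation in which a transposase adds the sequencing adapters on the beads, and the labels describe 12 samples, 2 per species and mark, taken from littermate embryos. For pig H3K4me1 the study's design text gives 1 biological replicate split into technical replicates. Each species and mark has 1 deposited list of peaks, 6 in all, which gives positions and no score. A width or an overlap therefore has no spread between embryos, no test between groups was possible, and a gene without a peak is a gene without a called peak, at a depth that the lists do not give. The intervals below are 95% Wilson intervals for shares and 95% order-statistic intervals for medians over genes, and they do not cover differences between embryos. The tissue was taken whole, so a mark in fewer cells and a weaker mark in every cell cannot be told apart. There were 18353 peaks of H3K4me3 in mouse and 18713 in pig, 20875 of H3K27ac in mouse and 27566 in pig, and 69962 of H3K4me1 in mouse and 103373 in pig.

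Ribosomal proteins assemble with ribosomal RNA in the nucleolus into the subunits that translate all cytosolic messenger RNA. Their genes are expressed in nearly every cell, in balanced amounts, and growing embryonic tissue makes ribosomes at a high rate. Most are short genes whose messenger RNA begins with a terminal oligopyrimidine (TOP) tract, a C followed by a run of C or T, through which the mTOR pathway controls their translation, and many carry small nucleolar RNAs (snoRNAs) in their introns. H3K4me3 sits at the starts of genes that are transcribed or poised. H3K27ac is added where promoters or enhancers are in use, and H3K4me1 is typical of enhancers and of the outer flanks of promoters. A few ribosomal protein genes have paralogs restricted to one tissue, such as Rpl10l and Rpl39l in testis and Rpl3l in striated muscle.

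Nearly all of these genes were marked as active promoters in both forelimbs. An H3K4me3 peak lay within 1 kb of an annotated transcription start site (TSS), upstream or downstream, at 79 of 83 mouse genes (95.2%, interval 88.3 to 98.1), against 64.9% of the other coding genes. In pig the count was 80 of 82 records (97.6%, interval 91.5 to 99.3), against 64.7% of the others. H3K27ac was present at 78 of 83 mouse genes (94.0%), against 41.4% of other genes, and at 72 of 82 pig records (87.8%), against 46.4%. All 31 genes of the 40S subunit carried H3K4me3 in each species, so that every gene without it belonged to the 60S subunit.

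The share with H3K27ac was also higher when only promoters with H3K4me3 were counted. Of the ribosomal protein genes with H3K4me3, 98.7% also carried H3K27ac in mouse and 90.0% in pig, against 62.1% and 69.3% of the other H3K4me3-marked genes of the same species. The combination of H3K4me3 with H3K4me1 but without H3K27ac was found at 0 of 83 mouse ribosomal protein genes (interval 0 to 4.42%), against 17.4% of other genes. In pig it was found at 8 of 82 (9.76%, interval 5.03 to 18.1), against 16.2%. All 3 marks were present at 64 of 83 mouse genes (77.1%), against 31.4% of others, and at 47 of 82 pig records (57.3%), against 34.8%. H3K4me3 with H3K27ac and no H3K4me1 was found at 14 mouse genes (16.9%), against 8.90%, and at 25 pig records (30.5%), against 10.0%. Among genes with both H3K4me3 and H3K27ac, 14 of 78 in mouse lacked H3K4me1, against 22.1% of the other genes. In pig 25 of 72 lacked it, against 22.4%. The counts of both combinations hung on the window. Within 0.5 kb all 3 marks were at 14 mouse genes (16.9%), against 17.7%, and at 15 pig records (18.3%), against 21.6%. The combination without H3K4me1 was then at 64 in mouse (77.1%), against 22.2%, and at 57 in pig (69.5%), against 22.4%. Within 2.5 kb that combination was at 6 mouse genes (7.23%), against 4.51%, and at 4 pig records (4.88%), against 4.73%. In the 1 kb window H3K4me3 alone was found at 1 mouse gene, against 7.17% of other genes, and at 0 pig records, against 3.70%. No gene of the family carried H3K27ac or H3K4me1 without H3K4me3 in either species.

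**Figure D1:**
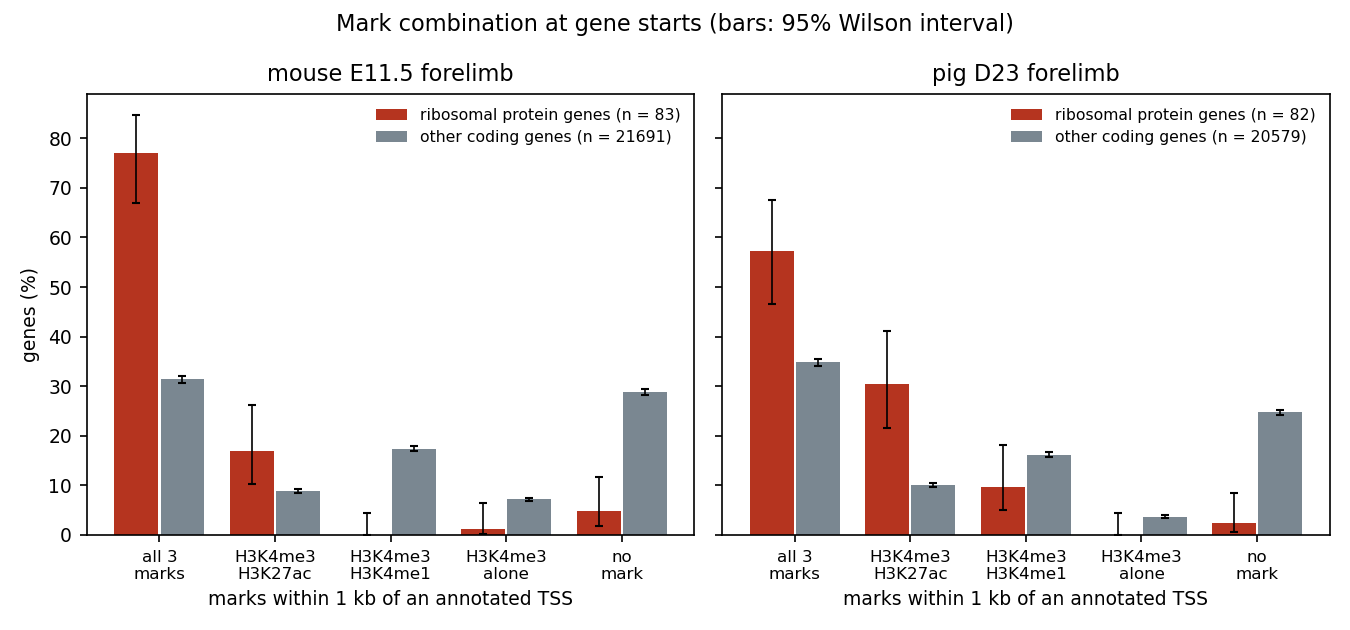
Share of genes (vertical axis, %) with each combination of marks within 1 kb of an annotated TSS, for cytosolic ribosomal protein genes (red, left bar of each pair) and all other coding genes (grey), in mouse and pig; error bars are 95% Wilson intervals over genes. All 3 marks were present at 77.1% of the mouse and 57.3% of the pig ribosomal protein genes, against 31.4% and 34.8% of the other genes; within 0.5 kb the shares were 16.9% in mouse, against 17.7%, and 18.3% in pig, against 21.6%.

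The genes that encode mitochondrial ribosomal proteins, a family of like size that serves the other translation system of the cell, carried H3K4me3 about as widely and H3K27ac at a lower share. H3K4me3 was present at 79 of 83 cytosolic and 78 of 78 mitochondrial ribosomal protein genes in mouse, and at 80 of 82 and 73 of 76 in pig. H3K27ac was present at 94.0% of the cytosolic (interval 86.7 to 97.4) and 70.5% of the mitochondrial genes (interval 59.6 to 79.5) in mouse. In pig the shares were 87.8% (interval 79.0 to 93.2) and 78.9% (interval 68.5 to 86.6), with intervals that overlap. Both families are compared as lists, and no test of the difference was made.

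The exceptions in mouse were the paralogs Rpl10l, Rpl39l and Rpl3l, and Rpl32l, which was not on the paralog list used here. They carried none of the 3 marks at their starts, a state shared by 28.8% of the other mouse coding genes. Rpl10l (chr12:66283379-66284401), the autosomal copy of the X-linked Rpl10 that is known from testis, lay 853871 bp from the nearest H3K4me3 peak. Rpl39l (chr16:10170197-10174911), known from testis as a copy of the X-linked Rpl39, lay 21976 bp from the nearest one. Rpl32l (chr10:20208439-20209030), which RefSeq records over 592 bp, lay 57732 bp from the nearest one. Rpl3l (chr17:24727826-24736143), the striated-muscle counterpart of Rpl3, lay 2832 bp from an H3K4me3 peak. The parent genes, with Rpl32 set beside Rpl32l by its symbol only, all had peaks. The H3K4me3 peak was 3896 bp wide at Rpl10, 3532 bp at Rpl39, 3542 bp at Rpl3 and 3256 bp at Rpl32, each with H3K27ac.

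Markers of the tissues in which those copies are known stood beside this as follows. Of 4 genes of heart and adult striated muscle (Myh6, Myl2, Tnni3, Nkx2-5), 0 carried H3K4me3 in mouse, and of 4 testis germ cell genes 2 did (Dazl and Tex14). Of 4 muscle precursor genes (Pax3, Myf5, Myod1, Myog), 4 carried H3K4me3 in mouse and 1 H3K27ac. In pig 3 of the 4 carried H3K4me3 and 1 H3K27ac. Of 10 genes of limb mesenchyme, 10 carried H3K4me3 in mouse forelimb and 7 in pig forelimb, where Alx4, Hoxd11 and Prrx1 had none. Pitx1, Tbx4 and Isl1, which are known from hindlimb, had H3K4me3 but no H3K27ac in mouse and in pig.

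Other paralogs were marked like ordinary members of the family. Rpl22l1, a copy of Rpl22 expressed in early embryos, carried all 3 marks in mouse with an H3K4me3 peak of 3625 bp, against 2921 bp at Rpl22, and H3K4me3 with H3K27ac in pig with a peak of 1324 bp, against 1947 bp at RPL22. Rps27l, a copy of Rps27 known as a p53 target, carried all 3 marks in both species, with H3K4me3 peaks of 3162 bp in mouse and 1491 bp in pig, against 3076 bp at Rps27 in mouse and 1361 bp at RPS27 in pig. Rpl7l1, related to Rpl7, had 3313 bp in mouse and 1950 bp in pig, against 4491 bp at Rpl7 in mouse and 3038 bp at RPL7 in pig, and carried H3K27ac in both species. RPL26L1, matched in the pig annotation only, carried all 3 marks with an H3K4me3 peak of 2289 bp, against 2269 bp at RPL26. Rpl41, matched in mouse only and the shortest protein of the family, carried H3K4me3 over 2765 bp with H3K27ac.

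In pig only 2 records lacked H3K4me3. RPL10L (chr1:176603177-176604116) had no mark, as in mouse, and lay 988538 bp from the nearest H3K4me3 peak. The other was the RPL18 record of chromosome 1 (chr1:84378453-84379052), 165261 bp from a peak, while the RPL18 record of chromosome 6 carried H3K4me3 over 2186 bp with H3K4me1. RPL3L differed between the species: in pig it carried H3K4me3 with H3K4me1, in a peak of 1014 bp that was the narrowest of the family and that also held the TSS of NDUFB10 on the opposite strand. Of 3 genes of heart and adult striated muscle annotated in pig, 2 carried H3K4me3 (NKX2-5 and TNNI3) and 0 carried H3K27ac. Whether the RPL3L peak belongs to RPL3L or to NDUFB10 cannot be told apart from positions.

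H3K27ac was missing at 1 mouse gene and 8 pig genes that carried H3K4me3. In mouse this was Rpl23a, whose H3K4me3 peak spanned 7595 bp and also held the TSSs of Nek8 and Tlcd1, and whose TSS lay 3.34 kb from the nearest H3K27ac peak. An H3K27ac peak overlapped this H3K4me3 peak outside the TSS window, so that counted over the whole H3K4me3 peak all 79 marked mouse genes carried H3K27ac. In pig these were RPL28, RPLP2, RPS2, RPS9, RPS15, RPS21, RPL3L and the RPL18 record of chromosome 6, with the nearest H3K27ac peak between 2.54 kb (RPL3L) and 165 kb (RPS21) away. RPLP2 is a stalk protein of the 60S subunit that binds translation factors, RPS9 acts in decoding at the 40S subunit, and RPS2 lines its mRNA entry channel. All 8 carried H3K4me1 as well. In mouse, 7 of these genes, all but Rpl3l, carried H3K27ac, in peaks from 1729 bp at Rplp2 to 5196 bp at Rps2.

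The 8 pig genes without H3K27ac had a higher median GC content than the rest of the family, close to that of other marked pig promoters. The median GC content of the 1 kb before and the 1 kb after the TSS was 58.1% at these 8 genes (range 52.9 to 67.3), against 51.8% at the 72 pig genes with H3K27ac (range 43.5 to 66.8). The other H3K4me3-marked pig genes had a median of 59.3% without H3K27ac and 55.4% with it, or 56.6% in all. The ranges of the 8 and the 72 genes overlap, and of the 9 pig ribosomal protein genes with H3K4me3 above 60% GC 7 carried H3K27ac, with RPL7A the most GC-rich of those at 66.8%. The same direction was seen over the other H3K4me3-marked pig genes, of which 57.1% above 60% GC carried H3K27ac, against 75.3% at or below 60%. In mouse those shares were 64.7% and 61.5%. None of the windows of the 8 genes held unknown bases. Whether GC content has a part in the missing H3K27ac calls was not tested.

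Neighbouring promoters of these 8 genes also carried H3K27ac at a low share, and the part of the neighbourhood in the missing calls was not tested. Within 100 kb of the pig genes without H3K27ac, 18 of 62 other H3K4me3-marked genes carried H3K27ac (29.0%), against 167 of 272 (61.4%) around the pig genes with H3K27ac. The mouse orthologs of the first set of neighbours, where they had H3K4me3, carried H3K27ac at 26 of 49 (53.1%), and the same 49 genes carried it at 16 (32.7%) in pig. The mouse orthologs of the second set carried it at 152 of 223 (68.2%), and the same 223 genes at 145 (65.0%) in pig. RPL3L and RPS2 share such a neighbourhood, so the 8 genes are not 8 separate regions.

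**Figure D2:**
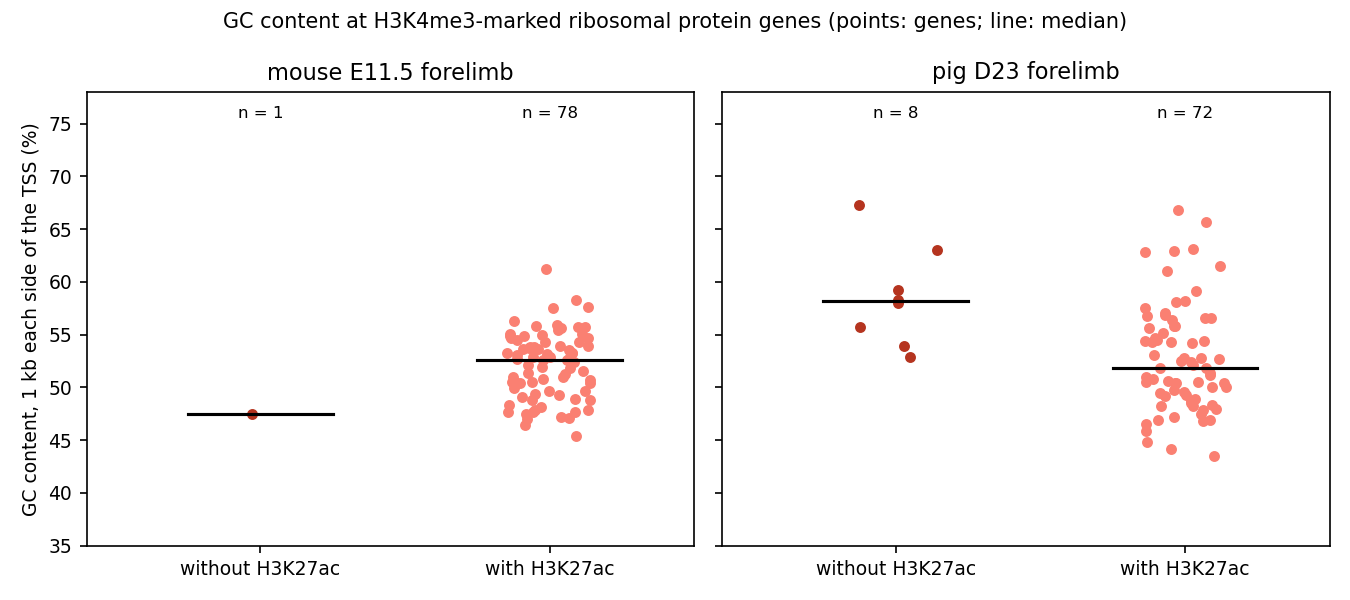
GC content over 1 kb before and 1 kb after the TSS (vertical axis, %) of each H3K4me3-marked cytosolic ribosomal protein gene, split by the absence (left) or presence (right) of an H3K27ac peak, in mouse and pig; each point is a gene and lines are medians. In pig the 8 genes without H3K27ac have a median of 58.1% and the 72 with it 51.8%, with overlapping ranges, and in mouse only Rpl23a lacks the mark.

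H3K4me1 lay differently around the starts of the family than around those of other H3K4me3-marked genes. It was rare at the start itself and lay mostly on the downstream side. At the curated TSS base (the start of the first curated RefSeq transcript), 0 of the 79 H3K4me3-marked mouse ribosomal protein genes were under an H3K4me1 peak (interval 0 to 4.64%), against 16.5% of the other H3K4me3-marked genes. In pig 3 of 80 were (3.75%, interval 1.28 to 10.5), against 21.6%. Among other genes with both H3K4me3 and H3K27ac the shares were lower, at 10.1% in mouse and 15.1% in pig. Of all mitochondrial ribosomal protein genes 15.4% were under such a peak in mouse and 5.26% in pig. The low pig share was thus not particular to the cytosolic family. At 1500 bp downstream of it, 86.1% of the mouse ribosomal protein genes were under an H3K4me1 peak, against 61.7% of the other genes. At 1500 bp upstream the shares were 24.1% of ribosomal protein genes and 29.1% of other genes. In pig the downstream coverage reached 86.2% at 2500 bp, against 58.1%, and the upstream coverage at 1500 bp was 21.2%, against 34.7%.

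Taken per gene, H3K4me1 within 2.5 kb of the TSS was on the downstream side alone at 46 of 79 mouse ribosomal protein genes (58.2%), against 38.3% of other H3K4me3-marked genes, and on the upstream side alone at 2 (2.53%), against 9.94%. In pig it was on the downstream side alone at 49 of 80 (61.2%), against 33.5%, and on the upstream side alone at 4 (5.00%), against 9.70%. Both sides were flanked at 24 mouse genes (30.4%), against 31.8%, and at 22 pig genes (27.5%), against 42.9%. The median distance to the downstream H3K4me1 peak was 802 bp in mouse, against 593 bp for other genes, and 875 bp in pig, against 563 bp.

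Whether a ribosomal protein gene was counted as carrying H3K4me1 therefore turned on the window. Within 0.5 kb of a TSS, 14 of 83 mouse genes (16.9%) had the mark, against 36.2% of other genes. Within 1 kb it was 64 (77.1%), against 54.5%, and within 2.5 kb it was 74 (89.2%), against 61.4%. In pig the counts were 16 of 82 (19.5%), against 43.6%, within 0.5 kb, 55 (67.1%), against 61.1%, within 1 kb, and 76 (92.7%), against 70.1%, within 2.5 kb. The family was thus below other genes in the narrow window and above them in the wide one, in both species. Counting only H3K4me3-marked genes, H3K4me1 was within 1 kb at 64 of 79 in mouse, against 75.2%, and 55 of 80 in pig, against 78.8%. Of the H3K4me3-marked ribosomal protein genes without H3K4me1 within 1 kb, 8 of 15 in mouse and 20 of 25 in pig had it within 2.5 kb downstream. The share among other such genes was not computed. Rpl39 and Rps23, picked out after their values were seen, had none within 2.5 kb on either side in either species.

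**Figure D3:**
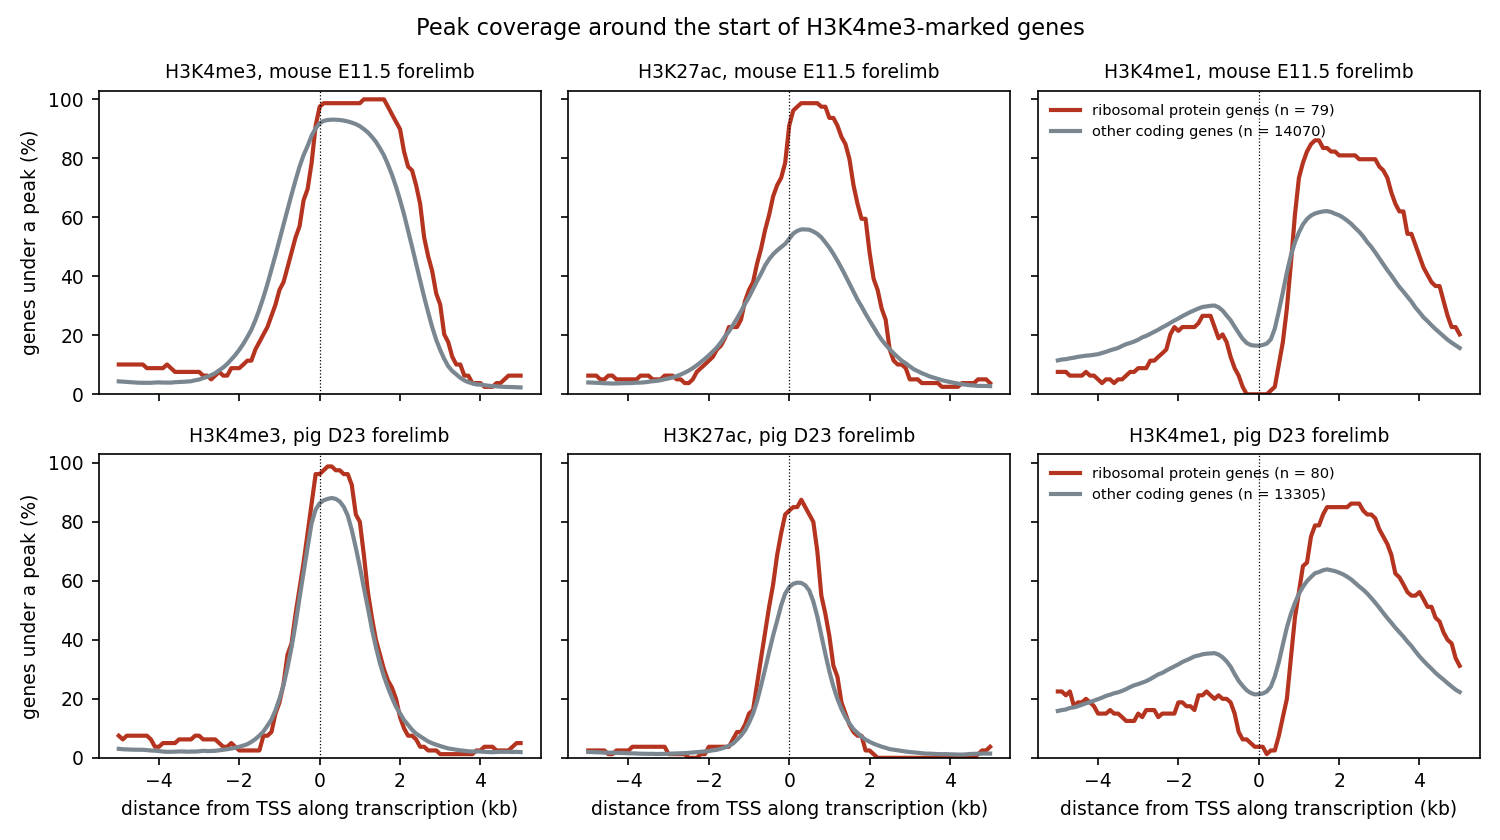
Share of H3K4me3-marked genes whose position is under a peak (vertical axis, %), against the distance from the curated TSS in the direction of transcription (horizontal axis, kb), for cytosolic ribosomal protein genes (red) and other coding genes (grey). H3K4me1 covered 0 of 79 mouse and 3 of 80 pig ribosomal protein genes at the TSS, and 86.1% in mouse at 1500 bp and 86.2% in pig at 2500 bp downstream.

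The H3K4me3 peaks of the family were of ordinary width. The median was 3518 bp (interval 3259 to 3655, n = 79) at the mouse ribosomal protein genes, against 3502 bp at the 14070 other genes with the mark, and 40 of 79 exceeded that median, against 50.0% by construction. In pig the median was 2014 bp (interval 1839 to 2251, n = 80), against 1912 bp at 13305 other genes, and 47 of 80 exceeded it, against 50.0%. In the widest 10% of other genes lay 6 of 79 mouse peaks (7.59%), against 9.96%, and 9 of 80 pig peaks (11.2%), against 10.0%. The medians of the 60S and 40S genes were 3468 and 3524 bp in mouse, and 2014 and 2000 bp in pig.

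The H3K27ac peaks of the family had a lower median width than those of other genes in mouse and a like one in pig, and the difference between the species was not tested. In mouse the median was 2707 bp (interval 2581 to 3028, n = 78), against 3184 bp at 8981 other genes, and 24 of 78 (30.8%, interval 21.6 to 41.7) exceeded the median of the others, against 50.0%. In pig the median was 1586 bp (interval 1424 to 1755, n = 72), against 1582 bp at 9553 other genes, and 36 of 72 exceeded it, against 50.0%. Where the peak held no other coding TSS the pig median was 1464 bp, against 1547 bp. At 68 of 78 mouse ribosomal protein genes (87.2%) the H3K27ac peak was narrower than the H3K4me3 peak of the same gene, against 68.9% of other genes with both marks. In pig this held at 67 of 72 (93.1%), against 87.0%.

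**Figure D4:**
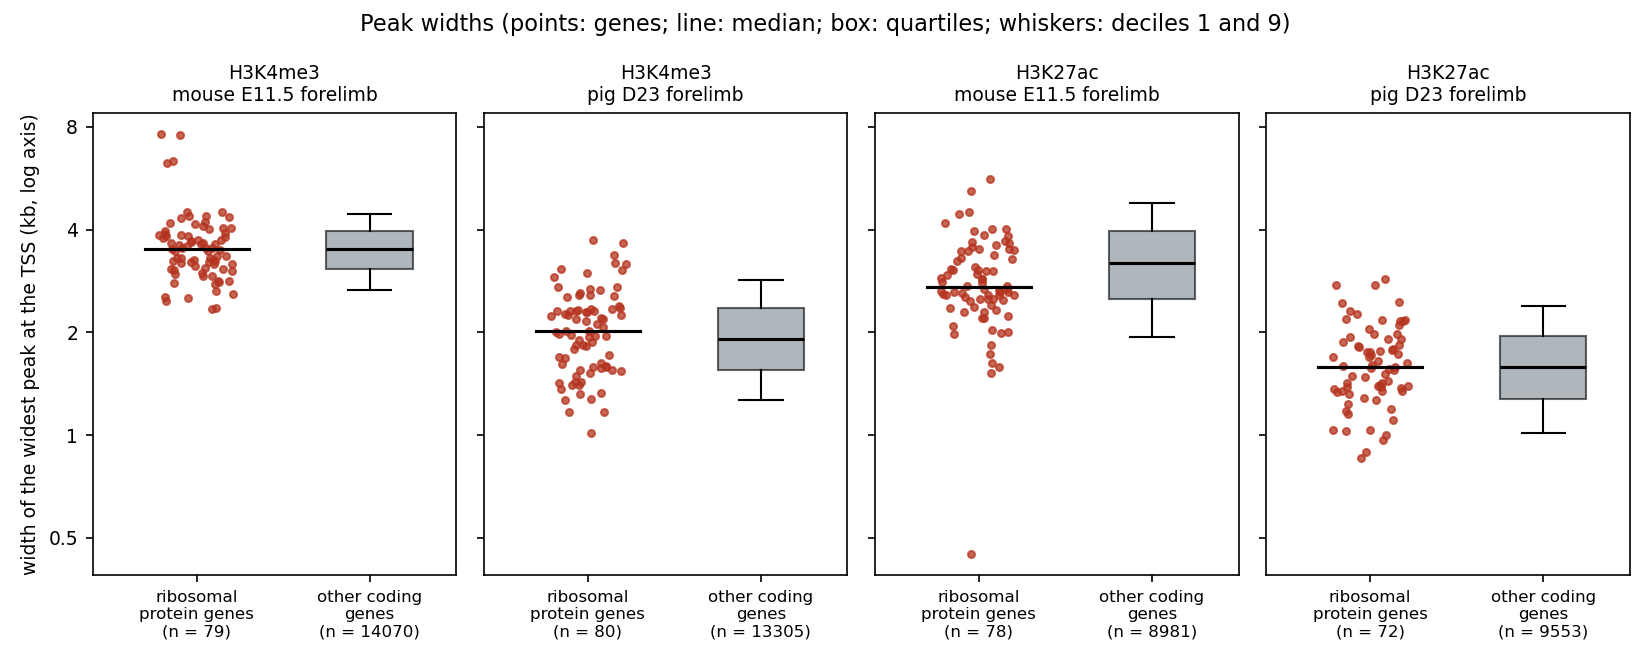
Width of the widest peak at the TSS (vertical axis, kb, log scale) of each cytosolic ribosomal protein gene (red points, line at the median) beside the other coding genes with the mark (grey box at the quartiles, line at the median, whiskers at the lowest and highest deciles). The mouse H3K27ac peaks have a median of 2707 bp, against 3184 bp for other genes, while the H3K4me3 medians are 3518 bp in mouse, against 3502 bp, and 2014 bp in pig, against 1912 bp.

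The H3K4me3 peaks at the family were set downstream of the start, as at other marked genes. The median downstream reach was longer than theirs in mouse and like theirs in pig. From the most upstream annotated TSS, the peak reached a median of 2653 bp downstream (interval 2483 to 2835) and 742 bp upstream (interval 499 to 1048) at 72 mouse ribosomal protein genes, against 2417 and 1007 bp at other genes. The downstream reach was the longer at 66 of 72 (91.7%), against 84.9%. In pig the reach was 1259 bp downstream (interval 1142 to 1471) and 559 bp upstream (interval 455 to 720) at 75 genes, against 1224 and 596 bp, and the downstream reach was the longer at 61 of 75 (81.3%), against 81.2%. The genes are short, with a median length of 3175 bp in mouse, against 17329 bp for other coding genes, and 3943 bp in pig, against 19362 bp. A mouse H3K4me3 peak therefore covered a median of 77.2% of the ribosomal protein gene, against 9.35% of other marked genes. In pig the median was 29.5%, against 4.03%. Wholly inside their peak lay 26 of 79 ribosomal protein genes in mouse and 5 of 80 in pig. That count was not made for other genes, so it has no background here.

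The widest mouse H3K4me3 peaks were mostly shared with a second promoter. They were 7624 bp at Rpl35, a 60S protein near the exit tunnel, with the TSS of Arpc5l in the same peak, and 7595 bp at Rpl23a, with Nek8 and Tlcd1. Rps2 followed with 6339 bp, shared with Ndufb10, and Rpl18 with 6280 bp, shared with Sphk2. Rps6, whose protein is the substrate of the S6 kinases, had 4519 bp and no other coding TSS in its peak. Among the narrowest were Rpl26 with 2339 bp, Rplp0 with 2359 bp, Rplp2 with 2475 bp and Rpl36a with 2539 bp. A second coding TSS lay in the H3K4me3 peak of 18 of 79 mouse genes (22.8%), against 19.3% of other marked genes, and of 22 of 80 pig genes (27.5%), against 20.6%.

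In pig other genes led the order. Among the widest H3K4me3 peaks were 3657 bp at RPL13A, 3359 bp at RPL7A, which shares its peak with MED22, 3183 bp at RPL10 and 3163 bp at RPS7. The narrowest were 1014 bp at RPL3L, 1168 bp at RPL14, 1170 bp at RPLP0, 1268 bp at RPS24 and 1275 bp at RPL17. Rplp0, the scaffold of the ribosomal stalk and a common reference gene in expression studies, was among the narrowest in both.

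Over the 77 ribosomal protein genes with H3K4me3 in both species, the mouse peak was wider at 74. The median ratio of mouse to pig width was 1.83 (interval 1.60 to 1.93), against 1.80 (interval 1.78 to 1.81) at 11080 other orthologs with the mark in both. The median over all listed H3K4me3 peaks is 3308 bp in mouse and 1679 bp in pig. The H3K27ac ratio was 1.77 (interval 1.53 to 1.91, n = 70), against 1.86 (interval 1.83 to 1.88). Genes kept little of their order: Spearman's rho between mouse and pig H3K4me3 widths was 0.244 over the 77 genes, against 0.321 over the other orthologs, and for H3K27ac it was 0.0619 over 70 genes, against 0.146. These rho values run across genes of 2 lists and are given as descriptions.

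**Figure D5:**
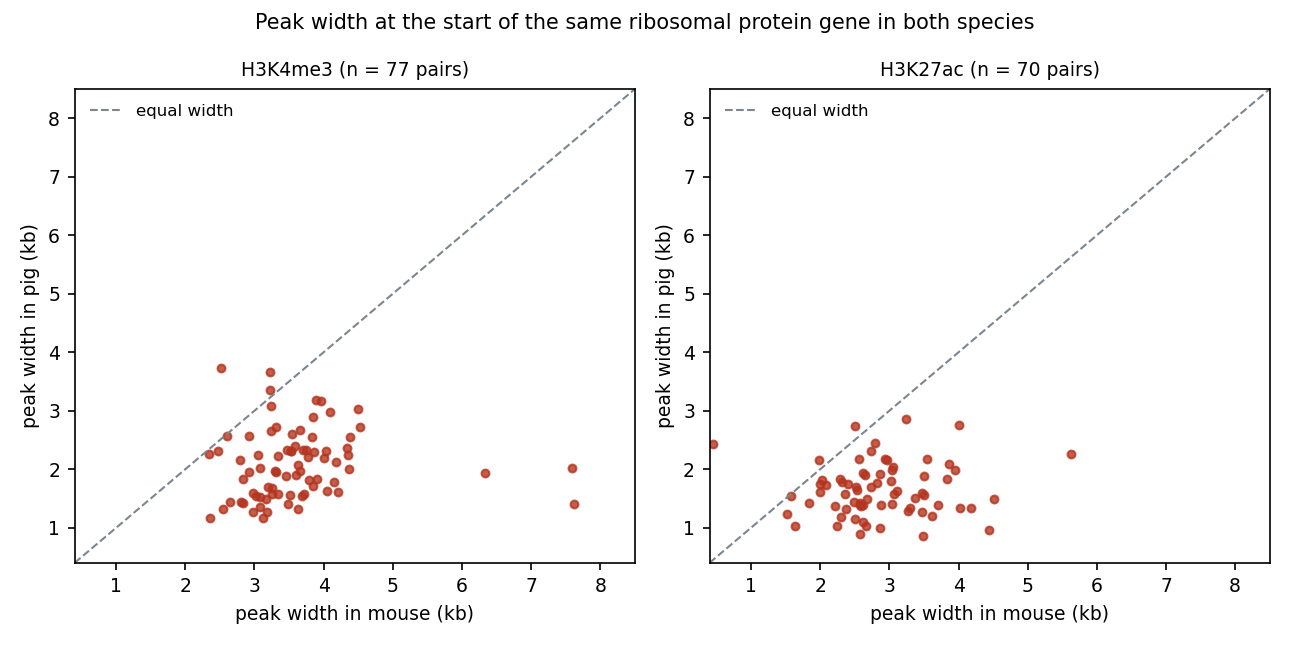
Peak width in mouse (horizontal axis, kb) against peak width in pig (vertical axis, kb) at the same cytosolic ribosomal protein gene, for H3K4me3 (77 genes) and H3K27ac (70 genes); the dashed line marks equal width. Points lie below the line at 74 genes for H3K4me3 and 67 genes for H3K27ac, with no clear order among genes.

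Most of the genes carried H3K4me3 and H3K27ac in both species. Of the 79 genes with 1 record in each annotation, 77 carried H3K4me3 in both species (97.5%, against 74.5% of 14868 other orthologs). H3K27ac was present in both at 70 (88.6%, against 42.2%), in mouse only at 6 (7.59%, against 9.59%), which were RPL28, RPLP2, RPS2, RPS9, RPS15 and RPS21, in pig only at RPL23A (1.27%, against 13.1%), and in neither at RPL3L and RPL10L (2.53%, against 35.1%). H3K4me1 within 1 kb was shared by 44 genes (55.7%, against 54.8%) and absent from both species at 7 (8.86%, against 13.8%). It was found at 19 genes in mouse alone (24.1%, against 13.9%) and at 9 in pig alone (11.4%, against 17.5%), namely RPL29, RPL35A, RPL38, RPL3L, RPL5, RPL6, RPL7, RPL8 and RPS29. The full combination of the 3 marks was the same at 44 of 79 genes (55.7%), against 48.7% of the other orthologs.

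Distal H3K27ac peaks were assigned to the family at shares below those of other H3K4me3-marked genes. The intervals hold the shares of all other coding genes. The distal peaks, which overlapped neither a TSS window nor an H3K4me3 peak, were given to the nearest coding TSS within 500 kb. In mouse 16 of 83 genes (19.3%, interval 12.2 to 29.0) received 29 such peaks, against 24.7% of other genes. In pig 18 of 82 (22.0%, interval 14.4 to 32.1) received 50, against 28.8%. Among other H3K4me3-marked genes the share was 31.6% in mouse and 34.1% in pig, above the intervals of the family. The family is counted here with its unmarked genes. Mitochondrial ribosomal protein genes had lower shares still, 17.9% in mouse and 14.5% in pig, so a low share was not particular to the cytosolic family. The room around the genes differed as well: the distance between the flanking coding TSSs had a median of 36816 bp around mouse ribosomal protein genes, against 93584 bp, and 39578 bp in pig, against 95846 bp. Of the assigned peaks 17 of 29 in mouse (58.6%) and 34 of 50 in pig (68.0%) overlapped H3K4me1, against 48.3% and 72.5% of all assigned distal peaks.

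Rps24 received more of them than any other member in both species. The gene (mouse chr14:24490678-24496960) encodes a 40S protein that is mutated in some patients with Diamond-Blackfan anaemia, and it is the last coding gene before a gene-poor stretch of 967 kb in mouse and 935 kb in pig that ends at Zmiz1. It received 5 peaks in mouse, which lay 86.7 to 408 kb downstream of its TSS, and 15 in pig, which lay 22.5 to 466 kb downstream. The widest in mouse was chr14:24899178-24903926 and the widest in pig chr14:80939662-80942773. Peaks were assigned by the nearest TSS only, and which gene they act on was not tested. Rps12 received 3 peaks in mouse and 4 in pig, all on the side of the gap of 436 kb in mouse and 348 kb in pig towards Eya4. Rpl11 and Rpl14 received 3 each in mouse, and RPLP1 and RPL37A 4 each in pig. Rpl11 lies between Eloa and Id3, and Rpl14 between Entpd3 and Ctnnb1. RPLP1 lies between KIF23 and TLE3, and RPL37A between SMARCAL1 and IGFBP2. In pig RPL10L received 2 such peaks and the RPL18 record of chromosome 1 received 3, both without a mark at their own starts.

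The starts of these genes were read from RefSeq promoters to set sequence beside the marks. The RefSeq promoter table (GRCm38.p6) holds 63 of the 83 mouse genes, and the pig starts were read from the Sscrofa11.1 genome at the curated RefSeq TSS. Below are the 3 narrowest (Rpl26, Rplp0, Rplp2) and the 3 widest (Rpl35, Rps2, Rpl18) mouse genes by H3K4me3 with an entry, each with its pig counterpart, because they span the range of peak width. Rpl39 and its unmarked copy Rpl39l, chosen after their values were seen, follow. Each line runs 5′ to 3′ over 40 bases before the RefSeq TSS and 20 bases from it. Capitals mark a TOP-like tract, that is a C followed by 4 or more C or T that begins within 10 bases of the TSS. Where a run of C and T holds several such starts, the capitals begin at the one nearest the TSS. The whole run can therefore begin further upstream, as at mouse Rplp2 and Rpl39l.
Mouse Rpl26, chr11:68901526-68901585, plus strand: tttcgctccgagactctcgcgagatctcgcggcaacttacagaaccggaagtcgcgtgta
Pig RPL26, chr12:53553434-53553493, minus strand: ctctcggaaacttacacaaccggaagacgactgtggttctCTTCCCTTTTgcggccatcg
Mouse Rplp0, chr5:115559427-115559486, plus strand: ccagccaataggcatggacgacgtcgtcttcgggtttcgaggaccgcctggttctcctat
Pig RPLP0, chr14:40223924-40223983, minus strand: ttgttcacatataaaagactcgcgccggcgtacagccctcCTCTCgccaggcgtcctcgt
Mouse Rplp2, chr7:141447611-141447670, plus strand: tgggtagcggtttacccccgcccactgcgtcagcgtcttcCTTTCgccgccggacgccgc
Pig RPLP2, chr2:507851-507910, plus strand: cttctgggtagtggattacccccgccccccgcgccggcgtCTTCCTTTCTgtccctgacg
Mouse Rpl35, chr2:39005112-39005171, minus strand: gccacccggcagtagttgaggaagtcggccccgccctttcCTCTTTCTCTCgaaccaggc
Pig RPL35, chr1:265642259-265642318, minus strand: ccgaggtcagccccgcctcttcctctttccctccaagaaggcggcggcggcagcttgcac
Mouse Rps2, chr17:24720023-24720082, plus strand: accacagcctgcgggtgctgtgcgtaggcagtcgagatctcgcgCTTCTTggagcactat
Pig RPS2, chr3:39996139-39996198, plus strand: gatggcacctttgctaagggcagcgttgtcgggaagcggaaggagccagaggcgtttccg
Mouse Rpl18, chr7:45718031-45718090, plus strand: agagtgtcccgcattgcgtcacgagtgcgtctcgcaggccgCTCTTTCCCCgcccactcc
Pig RPL18, chr6:53978662-53978721, minus strand: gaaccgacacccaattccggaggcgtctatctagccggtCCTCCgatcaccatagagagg
Mouse Rpl39, chrX:37085203-37085262, minus strand: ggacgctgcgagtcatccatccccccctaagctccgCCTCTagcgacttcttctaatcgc
Mouse Rpl39l, chr16:10170188-10170247, plus strand: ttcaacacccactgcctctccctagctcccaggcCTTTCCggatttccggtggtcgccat

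Among these mouse genes the TOP-like tract was found at all 3 with wide peaks and at 1 of the 3 with narrow ones (Rplp2). The pig lines with a tract were RPL26, RPLP0, RPLP2 and RPL18. The pig RPL35 line also holds a long run of C and T before the TSS. No C that could begin a tract in that run falls inside the start window. The stretch ccggaag lies after the TSS in mouse Rpl26 and before it in pig RPL26. Whether a line counted as having a tract therefore also turned on where RefSeq places the TSS. Differences in the tract between species or widths were not tested. The genes were chosen by their width in mouse, and the order differed in pig, where the H3K4me3 peaks were 2269 bp at RPL26, 1170 bp at RPLP0 and 2313 bp at RPLP2, and 1402 bp at RPL35, 1940 bp at RPS2 and 2186 bp at RPL18. Counted from the start nearest the TSS, the unmarked Rpl39l had a tract of 6 bases starting 6 bases before it. Rpl39 had a tract of 5 bases starting 4 bases before its TSS, so the tract was present with and without H3K4me3. Over the family, 38 of 63 mouse promoters (60.3%) had a TOP-like start, against 31.0% of 17492 coding promoters, and 43 of 82 in pig (52.4%), against 30.5% of 20654. With the tract starting at the RefSeq TSS base itself the shares were 20.6% in mouse, against 2.16%, and 23.2% in pig, against 3.05%.

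Short factor motifs were searched on both strands of the 300-base promoters, from 250 bases before the TSS to 50 from it, and none of the letter strings contains another. The ETS-family motif CCGGAAG (as bound by GABP) was found in 24 of 63 mouse ribosomal protein promoters (38.1%), against 11.8% of all coding promoters, and in 30 of 82 in pig (36.6%), against 10.6%. It can be read in both Rpl26 lines above. The YY1 motif AAGATGGC was found in 6 mouse (9.52%), against 3.27%, and 4 pig promoters (4.88%), against 2.55%. The SP1 motif GGGCGG was found in 57.1% in mouse, against 46.1%, and 58.5% in pig, against 49.1%. Among H3K4me3-marked genes it was in 59.3% in mouse, against 65.0%, and in 48 of 80 in pig, against 66.1%. CCAAT was found in 28.6% in mouse, against 39.0%, and 39.0% in pig, against 35.3%. TATAAA was found in 12.7% in mouse, against 13.4%, and 14.6% in pig, against 11.6%. The NRF1 motif GCGCATGC was found in 4.76% in mouse, against 3.58%, and 4.88% in pig, against 2.98%. Among H3K4me3-marked genes only, TATAAA was in 11.9% of the ribosomal protein promoters in mouse, against 7.02% of the others, and in 12 of 80 in pig, against 7.07%. On that footing CCGGAAG was in 39.0% in mouse, against 16.8%, and 37.5% in pig, against 2002 of 13305, AAGATGGC in 10.2% in mouse, against 4.34%, and 5.00% in pig, against 3.42%, and GCGCATGC in 5.08% in mouse, against 5.13%, and 5.00% in pig, against 4.22%. CCAAT was in 30.5% in mouse, against 38.5%, and 37.5% in pig, against 34.5%. The median number of CpG dinucleotides per promoter was 21 in the mouse family, against 13 over all coding genes and 21 over other H3K4me3-marked genes. Rpl3l, unmarked in mouse, had 2 and Rpl32l 3, while the unmarked Rpl39l had 17, as many as Rpl39.

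The mouse annotation places 55 snoRNA genes inside 29 of the 83 ribosomal protein genes (34.9%), against 0.899% of other coding genes with a snoRNA on the same strand. Rpl4, which hosts 5, and Rpl7a and Rpl13a, which host 4 each, carried all 3 marks. The hosts had a median H3K4me3 width of 3542 bp, against 3462 bp at the 50 marked members of the family without a snoRNA, and 28 of the 29 hosts carried H3K27ac. Processed pseudogenes of the family are numerous in mammalian genomes and mostly lie away from promoters. Of 258 mouse records described as ribosomal protein pseudogenes and lying over 5 kb from a coding TSS, 17 (6.59%) had H3K4me3 within 1 kb of their 5′ end, 7 (2.71%) H3K27ac and 29 (11.2%) H3K4me1. The distance limit leaves out records close to coding promoters, and shares at other positions so far from a coding TSS were not computed.

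Other genes of ribosome production and translation were marked as broadly by H3K4me3. Of 35 ribosome biogenesis genes 35 carried it in each species, and 27 carried H3K27ac in mouse and 27 in pig. All 29 mouse and all 27 pig translation factors on the list carried H3K4me3. H3K27ac was at 28 of them in mouse (not at Eif3l) and 23 in pig (not at EEF1D, EIF3F, EIF3H and PABPC1). Among genes that regulate ribosome production, 21 of 21 carried H3K4me3 in mouse and 19 H3K27ac, Mtor and Rps6kb2 being without it, and 20 of 20 carried both marks in pig. Of the mitochondrial ribosomal protein genes only MRPL53, MRPL54 and MRPS22 in pig lacked H3K4me3. Ribosomal protein genes whose symbols fall outside the rule, such as Fau, carried H3K4me3 at 5 of 6 in mouse, all but Rps27rt, and at 5 of 5 in pig.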

How the data were processed

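Histone marks were mapped in wild-type forelimbs, 2 samples per species and mark. The authors deposited peak positions (chromosome, start, end), 1 list per species and mark, without score or depth. Per the study's design text, crosslinking used 1% formaldehyde and each precipitation 1 µg antibody, reads were 50 bp or 100 bp cropped to 50 bp, alignment was to GRCm38 or Sscrofa11.1, and broad peaks passed an irreproducible discovery rate limit of 0.01. The submitters' processing notes name Bowtie2 2.3.5, deepTools 3.5, FastQC 0.11.9, SAMtools 1.9 and Trimmomatic 0.39. For the program that called the peaks the name was not given in the sources used here, and read depth is unknown.

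From the lists, Python 3.11.15 (numpy 2.4.6, scipy 1.17.1, pysam 0.24.0) computed overlaps of at least 1 bp with 1 kb before to 1 kb after any annotated RefSeq TSS, the widest peak per gene, reach from the most upstream TSS, and distal H3K27ac peaks by nearest TSS within 500 kb. Profiles, the side of H3K4me1, GC content and neighbourhoods were measured from the curated TSS, that of the first curated RefSeq transcript or, without one, the most upstream TSS. With 1 list per species and mark there was no test. The steps were tested on simulated data. The genes and gene lists were chosen with earlier results of these data known. Genes were named by a rule: those without H3K4me3, those whose marks differ between species (names where 15 or fewer), paralogs beside parents, the 5 widest and 5 narrowest H3K4me3 peaks, the 3 genes with most distal peaks, those in 1 annotation only, the 3 widest and 3 narrowest with a promoter entry for sequences, and those lacking H3K4me3 in other lists. Other genes named, such as neighbours, snoRNA hosts and genes of other lists without H3K27ac, were chosen after their values were seen. Some genes that the rule names are not reported here.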

Additional observations from a re-analysis of the deposited data

How the results depend on the processing

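No paired analysis was possible because each species and mark has a single peak list over its replicates, and for the same reason no replicate could be left out. Over 22 results, 106 alternatives were tried, and 23 moved a count by over 1.5 times; 11 results had none of these. Medians of width and reach stayed within their intervals. H3K4me1 moved with the window and changed sides against other genes. Within 0.5 kb it was at 14 mouse genes (16.9%, against 36.2% of other genes), where 64 had it within 1 kb. All 3 marks were at 14 (16.9%, against 17.7%). H3K4me3 with H3K27ac without H3K4me1 was at 64 (77.1%, against 22.2%), up from 14 within 1 kb. In pig these counts were 16 (19.5%, against 43.6%), 15 (18.3%, against 21.6%) and 57 (69.5%, against 22.4%). Within 1 kb they were 55, 47 and 25. Within 2.5 kb the combination without H3K4me1 was at 6 mouse (7.23%, against 4.51%) and 4 pig genes (4.88%, against 4.73%). Requiring 500 bp of the window covered also changed the side for H3K4me1 and for all 3 marks. H3K4me1 was then at 13 mouse (15.7%, against 36.1%) and 15 pig genes (18.3%, against 43.4%). All 3 marks were at 13 (15.7%, against 17.6%) and 14 (17.1%, against 21.3%). The combination without H3K4me1 was at 64 (77.1%, against 22.1%) and 58 (70.7%, against 22.5%). Keeping the wider 50% of each list left H3K4me3 at 46 mouse genes (55.4%, against 40.3%) and H3K27ac at 32 (38.6%, against 24.9%). It left H3K4me1 at 26 (31.3%, against 26.7%) and all 3 marks at 9 (10.8%, against 6.37%). Distal peaks were then at 7 (8.43%, against 13.9%), down from 16 with all peaks. In pig it left H3K4me1 at 28 (34.1%, against 38.8%) and all 3 marks at 14 (17.1%, against 13.3%). A TOP-like tract starting exactly at the TSS was at 13 mouse promoters (20.6%, against 2.16%), where 38 had one otherwise. In pig it was at 19 (23.2%, against 3.05%), where 43 had one otherwise. Alternatives chosen after seeing the data were H3K27ac anywhere in the H3K4me3 peak (79 mouse and 72 pig genes) and reach from the curated TSS, and neither moved a value that far. Depth is unknown, so a missing peak is only a peak that was not called.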
